A study of Homo sapiens with 3 samples.

Results

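The regions described here are 3625 HMGA1 peaks on chromosomes 1 to 22, at least 500 and under 1000 bp wide, that were called over input DNA and overlapped no peak called from the same HMGA1 library over histone H3. They are called lost wide peaks below. The list over input DNA (input list) held 385953 peaks and the list over H3 (H3 list) held 263033. On the autosomes 57424 input-list peaks had this width. Of these, 51249 overlapped exactly 1 H3-list peak and are called kept wide peaks, and 2550 overlapped more than 1. The lost wide peaks were 6.31% of the wide peaks, against 33.7% of all 381376 autosomal input-list peaks that overlapped no H3-list peak. The regions were selected on width in the input list and on overlap with the H3 list, so these percentages and the summit heights below describe the choice and test nothing.

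HMGA1 is an architectural chromatin protein whose AT-hooks bind the minor groove of AT-rich DNA, and it is known to compete with linker histone H1 for chromatin. Histone H3 is a core histone, so a ChIP against it follows nucleosomal DNA. Input DNA carries no antibody selection and follows how much of each region enters a library. A peak called over input and not over H3 is therefore a site whose HMGA1 reads passed the limit set by one control and not by the other, or whose passing stretch was too short to be listed.

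The study used DAMI cells, a leukaemic line labelled MPN/AML (myeloproliferative neoplasm and acute myeloid leukaemia) and grown in RPMI medium with 10% fetal bovine serum. Sonicated nuclei gave 1 HMGA1 ChIP library, 1 H3 ChIP library and 1 input DNA library, all from this one line with no further treatment in the labels. Both lists share all HMGA1 reads and there are no replicates, so peaks are compared without p-values. Intervals are 95% intervals across peaks and cover counting error only. Fold and −log10 q are the authors' own values per peak. Reads at the summit and control levels were recovered from the authors' fold and p-value, and the total read numbers are unknown.

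Lost wide peaks were low. The median lost wide peak held 14 HMGA1 reads at its summit (quartiles 13 and 16, lowest 9, highest 81), whereas the median kept wide peak held 26 (quartiles 20 and 34, lowest 11, highest 252). The fold over input followed: its median was 3.7 in lost wide peaks (quartiles 3.32 and 4.23) and 5.89 in kept wide peaks (quartiles 4.76 and 7.46). The −log10 q was 4.44 at the median of the lost and 12.1 at the median of the kept. The classes nevertheless overlapped in height, since 5817 kept wide peaks (11.4%) had 17 reads or fewer, as did 3234 lost wide peaks (89.2%).

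**Figure D1:**
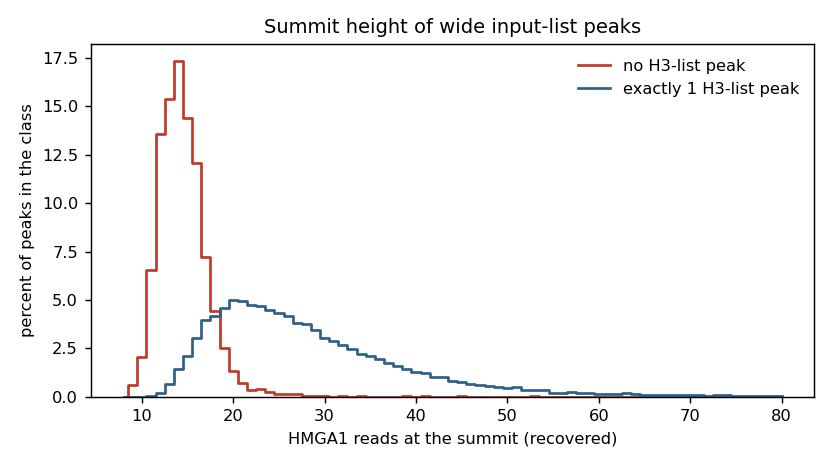
Percent of peaks (vertical) at each number of recovered HMGA1 reads at the summit (horizontal), for wide input-list peaks with no H3-list peak (red) and with exactly 1 (blue). Lost wide peaks gather around a median of 14 reads, kept wide peaks spread around a median of 26.

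The lost wide peaks were as high as the narrow peaks lost over H3. All 128580 autosomal input-list peaks without an H3-list peak had the same median of 14 reads and the same quartiles, with a median width of 223 bp and a median fold of 3.7. Peaks of this width made up 15.1% of the autosomal input list and 2.82% of its peaks without an H3-list peak. Below 500 bp 39.5% of the autosomal peaks had no H3-list peak, and from 1000 bp on it was 0.468% (36 of 7699).

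The lower width limit cut through a continuous range. From 500 to under 520 bp 688 of 5853 peaks had no H3-list peak (11.8%), and from 480 to under 500 bp 778 of 6389 (12.2%). In both ranges the median of those without one was 14 reads, at a fold of 3.7. At the upper limit 55 of 3589 peaks from 900 to under 1000 bp had none (1.53%), and 21 of 2451 from 1000 to under 1100 bp (0.857%). No kept wide peak shared 50 bases or fewer with its H3-list peak, whereas overlaps of less than 50% of the width were common: 13365 wide peaks, the 3625 lost included, had no H3-list peak that covered 50% of them.

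The share of wide peaks lost over H3 was smaller at each step of summit height. It was 96.5% (interval 94.0 to 98.2) at 11 reads or fewer, 71.1% (68.8 to 73.4) at 12 to 13 reads and 38.5% (36.8 to 40.3) at 14 to 15 reads. It was 15.9% (14.8 to 17) at 16 to 17 reads, 3.87% at 18 to 20, 0.608% at 21 to 24 and 0.0931% (28 of 30088) at 25 or more. At the same number of reads, peaks of other widths were lost more often: 77.1% at 14 to 15 reads and 23.2% at 18 to 20 reads. Overlap with the H3 list thus differed with width at fixed height as well. A wider peak has more bases in which the 1 shared base can fall, so part of this difference is built into the rule.

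**Figure D2:**
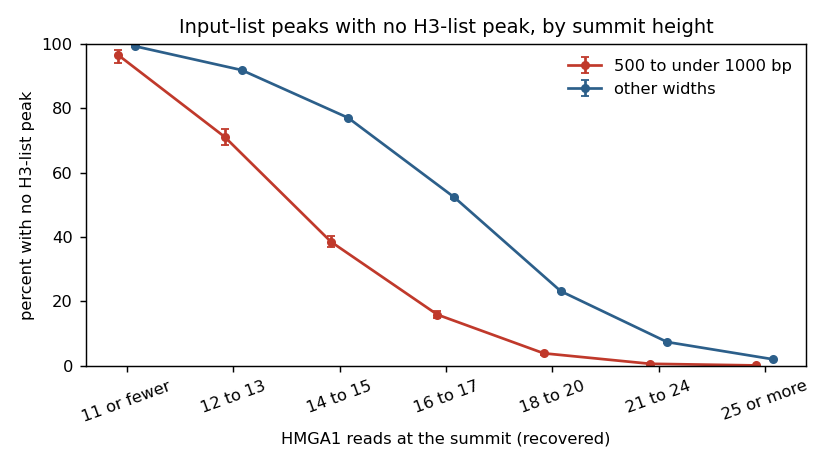
Percent of autosomal input-list peaks with no H3-list peak (vertical) by recovered HMGA1 reads at the summit (horizontal), for peaks of 500 to under 1000 bp (red) and of other widths (blue), with 95% intervals for counting error. At 14 to 15 reads 38.5% of the wide peaks and 77.1% of the others had no H3-list peak.

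Most of that dependence on width lay below 300 bp. Among peaks with 14 to 15 reads, 96.8% of those under 200 bp had no H3-list peak, then 90.5% up to 250 bp and 70.9% up to 300 bp. From 300 bp on the share was nearly level, with 41.7% up to 400 bp, 39.1% up to 500 bp and 43.7% (41.3 to 46.1) up to 600 bp. It was lower again from 600 to 800 bp (33.2%, 30.3 to 36.1) and from 800 to 1000 bp (25.3%, 20 to 31.2). Each of these classes leaves out its upper bound. The narrowest peak listed was 187 bp in both lists.

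The 10 lost wide peaks with the highest −log10 q lay on 8 chromosomes and held 23 to 53 reads, well above the median of 14. The highest was on chromosome 17 from 30717592 to 30718221, with 28 HMGA1 reads, an input control level of 3.26 reads, a fold of 6.81 and a −log10 q of 14.8. Next in rank were the chromosome 2 site from 27859201 to 27859786 (28 reads, fold 6.57) and the chromosome 1 site from 245416645 to 245417157 (27 reads, fold 6.73). Such heights were mostly kept elsewhere, as the 28 of 30088 above show. Peaks on chromosome 2 from 117621144 to 117621786 and on chromosome 5 from 20092522 to 20093212 had 25 reads each over an input control at its floor, and shared the highest fold of any lost wide peak, 6.88. A second chromosome 17 peak, from 73679036 to 73679568, had 26 reads and a fold of 6.36.

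Of the remaining 4, 3 had 23 reads each with folds between 6.27 and 6.35. They lay on chromosome 12 from 21128108 to 21128684, chromosome 6 from 153782507 to 153783053 and chromosome 11 from 104097156 to 104097734. The other peak of the 10, on chromosome 9 from 5323280 to 5323799, was of another kind. It had 53 reads over an input control of 14.4 reads, 5.19 times the floor, with a fold of 3.5 and a −log10 q of 12.5. It also stood 418 bp from an H3-list peak with 44 HMGA1 reads, at which the H3 level was 5.27 times its own floor.

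Ranked by reads, the highest lost wide peaks stood over raised input. The highest of all was on chromosome 22 from 20325670 to 20326341, with 81 HMGA1 reads over an input control of 46.3 reads (16.6 times the floor) and a fold of 1.73. The other 4 of the top 5 were all on chromosome 9. They started at 5323280, 17819565, 11109970 and 26162689, with 53, 45, 41 and 39 reads. Their input control levels were 5.19, 4.16, 4.55 and 3.88 times the floor, and their folds were 3.5, 3.66, 3.08 and 3.4. Mappability and copy number of these sites were not analysed here.

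Input control levels were low at most lost wide peaks. The control level was read as MACS2's local background, which cannot go below a floor fixed for the whole genome, and the input floor was 2.78 reads. The input control was above this floor at 41.0% of lost wide peaks (interval 39.4 to 42.6) and at 69.7% of kept wide peaks (69.3 to 70.1). The gap was smaller at equal height: with the kept peaks weighted to the same reads, 41.8% of 3528 lost wide peaks were above the floor, against 46.4% of the kept. The 97 lost wide peaks with 9 or 10 reads had no kept peak of equal height, so kept peaks weighted to equal reads stand for the other 3528. Where 3528 is not named, values of lost wide peaks cover all 3625, as do the ratios by chromosome and window.

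The direction of this difference changed with height. At 14 to 15 reads the input control was above its floor in 38.6% of lost and 47.1% of kept wide peaks, and at 16 to 17 reads in 49.8% and 52.3%. At 18 to 20 reads it was 65.3% of the lost and 56.4% of the kept, at 21 to 24 reads 88.9% and 63.5%, and at 25 or more 92.9% (26 of 28) and 79.2%. The control level itself parted in the same way: at 21 to 24 reads its median was 4.45 reads in lost and 3.09 in kept wide peaks, and at 25 or more 6.23 and 3.56. Fold was lower in the lost at these heights, with medians of 4.4 against 5.71 at 21 to 24 reads and 3.86 against 7.24 at 25 or more.

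For single read numbers the same turn was seen near 18 reads. With 15 reads, 26.1% (22.9 to 29.4) of wide peaks above the input floor were lost and 37.1% (33.9 to 40.4) of those at the floor. With 17 reads the shares were 10.4% above the floor and 11.7% at it, and with 18 reads 7.2% and 5.95%, with overlapping intervals in both cases. With 20 reads 2.47% (1.78 to 3.33) were lost above the floor and 0.725% (0.313 to 1.42) at it. Most lost wide peaks were low sites over floor input, with a small group of high sites over raised input.

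The H3 level at a lost wide peak is not listed, but the level that would have kept its summit out can be computed. In the H3 list HMGA1 reads were multiplied by 0.787, the H3 floor was 2.19 reads, and the lowest −log10 p listed was 2.77. Over an H3 level at its floor, 11 HMGA1 reads reach that limit, against 8 reads over floor input in the input list. By this measure 3528 of the 3625 lost wide peaks (97.3%, interval 96.7 to 97.8) held enough reads at the summit to pass over floor H3, with a median −log10 p of 5.47. So did 98.2% of all autosomal input-list peaks and 94.6% of all those without an H3-list peak. The share only counts summits of 11 reads or more and does not set the lost wide peaks apart. For the summit base itself to fail, the median lost wide peak needed an H3 level of 4.3 reads, 1.97 times the floor. The chromosome 17 peak at 30717592 needed 11.4 reads, 5.22 times the floor, and the chromosome 22 peak with 81 reads needed 43.1 reads, 19.7 times the floor.

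H3 levels are listed only where a peak passed over H3, so those of kept wide peaks are low by selection and do not show the H3 level at lost ones. At 14 to 15 HMGA1 reads, 69.9% of the kept had H3 at its floor, and at 18 to 20 reads 58.7%. Their H3-list peak was narrower than the input-list peak, with medians of 369 bp and 592 bp at 14 to 15 reads. At 12 to 13 reads the H3-list width was 320 bp, against 589 bp in the input list. A site whose passing stretch over H3 was under 187 bp would not be listed. Whether a raised H3 level or a short stretch kept a given site out of the H3 list was not tested, since the lists hold no coverage tracks.

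Summits of lost wide peaks lay near one end of the peak rather than at its middle. The summit fell in the middle 40% of the width in 18% of lost wide peaks (16.8 to 19.3), against 46.4% (45.9 to 46.8) of kept wide peaks and 41.9% of the kept when weighted to equal reads. In 41.3% of the lost (41.4% of the 3528) the summit was in the outer 20% at either end, against 13.8% of the kept and 23.5% of the kept at equal reads. From the start of the peak, 3.92% of lost summits fell in the first 10% of the width, 18.5% between 10 and 20% and 20.1% between 20 and 30%. At the other end it was 2.62% in the last 10%, 16.3% between 80 and 90% and 20.6% between 70 and 80%. The kept were close to the lost between 20 and 30% (20.3%) and between 70 and 80% (19.6%), and differed between 10 and 20% (7.1%) and between 80 and 90% (6.03%).

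**Figure D3:**
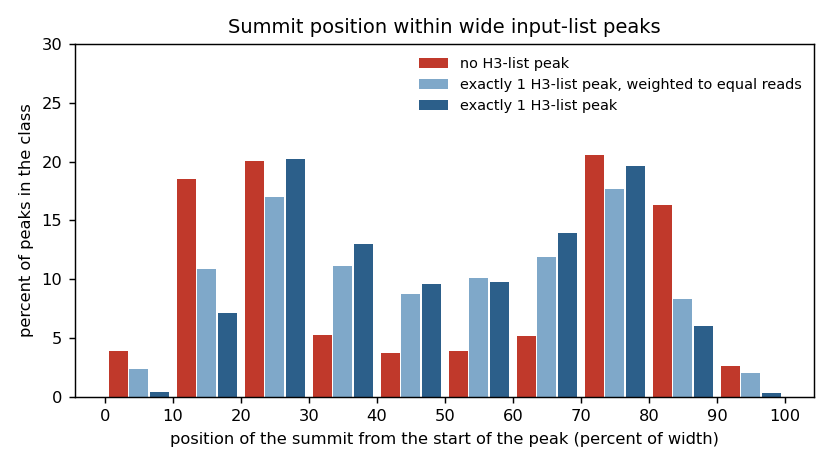
Percent of peaks (vertical) by position of the summit from the start of the peak as a percent of its width (horizontal), for wide input-list peaks with no H3-list peak (red), for those with exactly 1 weighted to equal reads (light blue) and unweighted (dark blue). Lost wide peaks have 2 humps near the ends, with 18% of summits in the middle 40% of the width.

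In bases, the summit of a lost wide peak stood at a fairly fixed distance from the nearer end. The median distance was 127 bp (125 to 129, quartiles 97 and 158) in lost wide peaks, 178 bp in kept wide peaks and 163 bp in the kept at equal reads. It was 122 bp in lost peaks under 600 bp wide and 148 bp in lost peaks of 800 bp or more, whereas in the kept of these widths it was 167 bp and 243 bp. Peaks under 500 bp without an H3-list peak had a median distance of 88 bp at a median width of 222 bp. Those under 500 bp with exactly 1 H3-list peak had 131 bp at 309 bp, close to the 127 bp of lost wide peaks. Sub-peaks are not listed, so whether a lost wide peak is 2 neighbouring narrow stretches joined into 1 row was not tested.

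Within the class, wider peaks were lost less often but were no higher when lost. The lost share was 9.84% (9.47 to 10.2) from 500 to under 600 bp, 5.27% from 600 to under 700 bp, 3.16% from 700 to under 800 bp and 1.84% (1.57 to 2.13) from 800 to under 1000 bp. The median was 14 reads in the lost in each of these width classes, while in the kept it was 24, 26, 27 and 29 reads. Most lost wide peaks were close to the lower limit, with a median width of 564 bp against 623 bp in the kept, and 66.0% of them were under 600 bp.

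Chromosomes differed in how many of their wide peaks were lost. Chromosome 22 had the highest share with 19 of 107 (17.8%, interval 11 to 26.3), then chromosome 14 with 172 of 1176 (14.6%, 12.7 to 16.8) and chromosome 16 with 50 of 373 (13.4%, 10.1 to 17.3). The rest of the autosomes had 6.29, 6.14 and 6.27% in these 3 comparisons. Chromosomes 20, 7 and 10 followed with 12.3, 11.7 and 10%. The lowest share was on chromosome 21 with 31 of 1476 (2.1%, 1.43 to 2.97), then chromosome 13 with 4.17% and chromosome 1 with 4.5%. Input-list peaks of all widths differed in a similar order, so it was not particular to wide peaks. Without an H3-list peak were 49.3, 48 and 51% of them on chromosomes 22, 14 and 16. On chromosomes 21, 13 and 1 it was 17.9, 25.9 and 28.5%, against 33.7% on all autosomes. In numbers, chromosome 4 held the most lost wide peaks, 453 (12.5% of all), with a share of 6.32% against 6.31% on the rest of the autosomes.

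This order followed the height of the wide peaks on each chromosome. Wide peaks on chromosomes 14 and 7 had a median of 20 reads, with 76.3 and 75.5% of them at the input floor. On chromosome 21 the median was 34 reads with 2.3% at the floor. Across the 22 autosomes the lost share and the median reads of wide peaks had a Spearman correlation of -0.866, and the lost share and the percent at the input floor one of 0.939. The lost share of wide peaks and that of peaks of all widths had one of 0.979. These points share the same 3 libraries, and the calling limit acts on the same reads, so the correlations are descriptions.

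At equal reads most of the chromosome differences were gone. For each chromosome the lost wide peaks were set against the number given by the autosome-wide lost share at each number of reads. That ratio lay between 0.9 and 1.1 on 15 of 22 autosomes, and was 1.04 (0.893 to 1.21) on chromosome 14, 0.921 (0.813 to 1.04) on chromosome 7 and 1.02 on chromosome 10. Chromosome 21, the lowest by raw share, had the highest ratio, with 31 lost wide peaks against 16.6 (ratio 1.87, interval 1.27 to 2.65). It was the 1 chromosome of the 22 whose interval did not include 1, and the intervals are not adjusted for their number. Chromosomes 22 and 19 had ratios of 1.63 (0.98 to 2.54) and 1.53 (0.999 to 2.24).

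**Figure D4:**
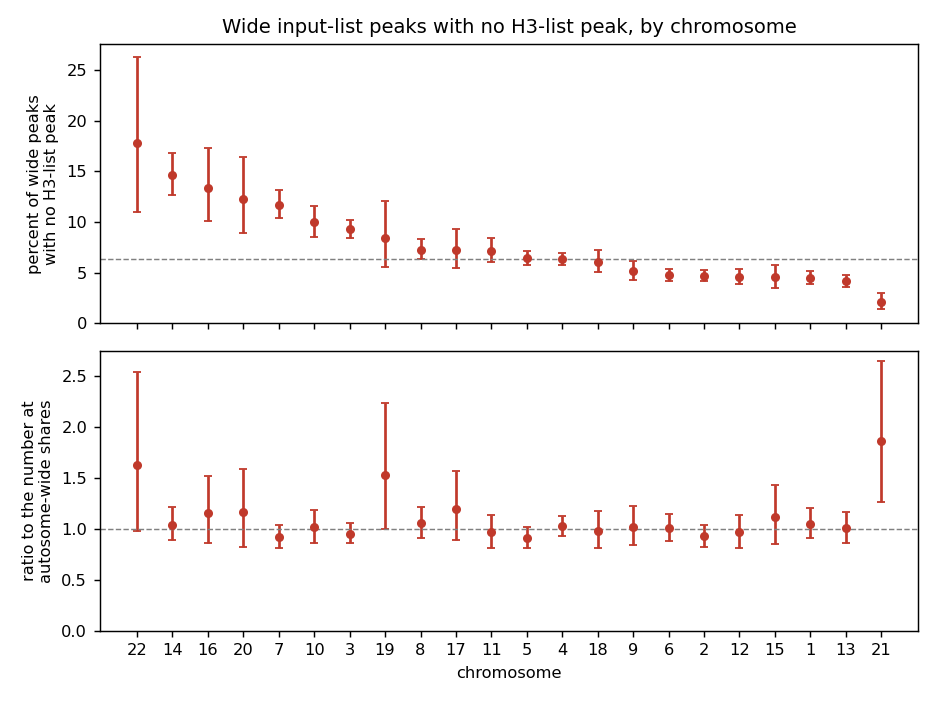
Top, percent of wide input-list peaks with no H3-list peak on each autosome (dashed line, 6.31% of all); bottom, number of such peaks over the number given by the autosome-wide share at equal reads (dashed line, 1). Bars are 95% intervals for counting error. Chromosome 21 is lowest in the top panel at 2.1% and highest in the bottom panel at 1.87.

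The highest-q lost wide peaks of the high-share chromosomes all stood over input at its floor and were higher than the median lost wide peak of 14 reads. Choosing by −log10 q favours both traits, and 66.4 to 76.3% of wide peaks on these chromosomes were at the floor. On chromosome 22 it ran from 38330481 to 38331083 with 22 reads over floor input, and lay 78274 bp from the nearest H3-list peak. On chromosome 14 it ran from 43760608 to 43761140 with 21 reads, and on chromosome 16 from 27674015 to 27674885 with 19 reads, both over floor input. On the low-share chromosomes 21 and 13 the corresponding peaks held 24 reads (27765609 to 27766211) and 23 reads (63417111 to 63417714), over input at 1.36 and 1.12 times the floor. The one on chromosome 1 is the peak from 245416645 named above.

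Long segments with raised input held few lost wide peaks by share, but more than their reads gave. In 24 windows of 5 Mb the median input control at all peaks was at least 2 times the floor. These windows held 50 of 4260 wide peaks lost (1.17%, 0.872 to 1.54), against 6.72% outside them. At equal reads the autosome-wide shares give 14.9, so the ratio was 3.35 (2.49 to 4.42). The median lost wide peak there held 21.5 reads at a fold of 3.49, whereas the median kept wide peak there held 46 reads at a fold of 5.72. Of the 28 lost wide peaks with 25 reads or more, 14 were in these windows. Wide peaks there were high in general, with medians of 39 to 58 reads by chromosome. How many of all 30088 wide peaks of 25 reads or more lay there was not counted, so no enrichment is shown.

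The 24 raised windows lay on 5 chromosomes, and the ratio was above 1 on each, highest on chromosomes 21 and 4. These ratios are given without intervals, so a value above 1 on each chromosome is a description. In the 8 raised windows of chromosome 4, 24 of 2437 wide peaks were lost, against 3.97 at equal reads (ratio 6.04), while on the rest of the chromosome 429 of 4727 were lost (ratio 0.981). In the 5 raised windows of chromosome 21 it was 10 of 351 (ratio 6.94), and 21 of 1125 on its rest (ratio 1.39). On chromosome 9 the 6 raised windows held 11 of 1250, against 6.97 at equal reads (ratio 1.58), and the rest 103 of 956 (ratio 0.986). Chromosome 1 had 3 lost wide peaks in 4 raised windows (ratio 1.6) and chromosome 2 had 2 in 1 (ratio 3.01), both from few peaks. The windows were defined by the input control alone, and what moved the ratio was not tested.

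Lost wide peaks stood a little farther from H3-list peaks than kept wide peaks, at about the distance of all autosomal input-list peaks. Since overlap chose the classes, distance was taken to the nearest H3-list peak that the peak itself did not overlap. The median distance was 2007 bp (1909 to 2122) in lost wide peaks and 1377 bp (1357 to 1399) in kept wide peaks. With the kept weighted to equal reads it was 2008 bp for the 3528 lost and 1708 bp for the kept, and with reads and chromosome both equal 2003 bp and 1739 bp. An H3-list peak lay within 1 kb of 30.8% of the lost (29.3 to 32.4), against 40.6% of the kept and 34.5% of the kept at equal reads. Within 10 kb the shares were 87.2%, 92.9% and 90.6%. Over all autosomal input-list peaks the median distance was 2087 bp, with 30.8% within 1 kb and 86.3% within 10 kb. All autosomal peaks without an H3-list peak had a median of 2814 bp.

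**Figure D5:**
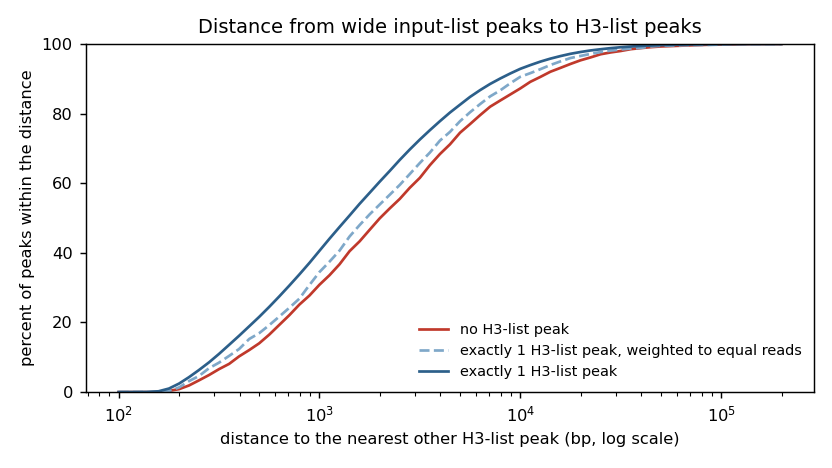
Percent of wide input-list peaks (vertical) with another H3-list peak within a given distance (horizontal, log scale), for those with no H3-list peak (red), with exactly 1 weighted to equal reads (light blue, dashed) and unweighted (dark blue). The curve of the lost wide peaks lies to the right, with medians of 2007 bp against 1708 bp at equal reads and 1377 bp unweighted.

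The extremes were both low sites. The lost wide peak farthest from an H3-list peak was on chromosome 8 from 112761514 to 112762013, at 130432 bp, with 11 reads over floor input. The nearest was on chromosome 13 from 105619049 to 105619589, at 148 bp from an H3-list peak of 17 reads, with 15 reads of its own. Of the lost wide peaks 26 (0.717%) were more than 50 kb from any H3-list peak, and 507 (14%) had one within 500 bp. Over all autosomal input-list peaks, with overlapped H3-list peaks again left out, these shares were 1.04% and 15.6%. They were 0.338% and 21.6% in kept wide peaks, and 0.581% and 16.9% in the kept at equal reads. The shares of lost wide peaks were thus close to those of all autosomal peaks and do not set them apart.

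The H3-list peaks beside lost wide peaks were like those beside kept ones of equal height. The nearest one held a median of 21 HMGA1 reads with a fold of 5.25 over H3, in lost wide peaks and in the kept at equal reads alike, against 23 reads and a fold of 5.25 in all kept wide peaks. The H3 level there was above its floor beside 36.6% of all lost wide peaks (35.0 to 38.2) and 37.2% of the 3528 (35.6 to 38.8). The shares beside kept wide peaks were 34.7% at equal reads and 53.6% in all of them. These neighbours passed the H3-list limit themselves, so they do not show the H3 level at the lost site.

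Lost wide peaks did not gather among themselves much beyond what their height gave. Another input-list peak of any width lay within 10 kb of 95.7% of the lost (95 to 96.3), against 97.3% (97.1 to 97.4) of the kept. It was 93.8% of all autosomal input-list peaks and 91.7% of all those without an H3-list peak. The nearest input-list peak was itself without an H3-list peak in 37.6% of the lost (36.0 to 39.2; 37.8% of the 3528) and 28.8% of the kept, but in 37.4% of the kept at equal reads. Where another wide peak lay within 10 kb, it was a lost one for 8.25% of the lost (151 of 1831, 7.03 to 9.6) and 5.2% of the kept, and for 7.77% of the kept at equal reads.

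Most lost wide peaks were single. Joined where 10 kb or less separated them, they formed 3509 groups, of which 3397 held 1 peak, 108 held 2 and 4 held 3. Between its flanking H3-list peaks, the median lost wide peak sat in an interval of 12156 bp free of H3-list peaks (quartiles 6012 and 24880 bp). That interval held a median of 1 other input-list peak, and 1447 lost wide peaks (39.9%) were alone in it. Groups and intervals were counted for lost wide peaks only, so these values are not shown to be particular to them.

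The densest windows of 1 Mb held 14 lost wide peaks each. They were on chromosome 14 from 43000001 to 44000000, where 84 peaks were wide (16.7% lost), and on chromosome 7 from 125000001 to 126000000, where 49 were wide (28.6% lost). In both windows the median input control of wide peaks was at its floor, with 20 and 19 reads at the median summit. A further 12 windows held 10 to 13, on chromosomes 3, 4, 7, 13 and 14, with 43 to 120 wide peaks each. Of these wide peaks 9.17 to 25.6% were lost, at median heights of 18 to 26 reads, against 6.31% of all wide peaks. By comparison the median window with any lost wide peak held 2, and 1563 of the 2660 windows with a wide peak held a lost one. The windows were picked by their counts, which were not set against the number at equal reads.

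The first lost wide peaks by position in the densest windows held 11 to 17 reads, mostly over floor input. The first 3 by position on chromosome 14 started at 43035386, 43042953 and 43125319, with 17, 13 and 13 reads, and stood 4925, 4155 and 7869 bp from an H3-list peak. On chromosome 7 the first 3 started at 125009840, 125014866 and 125019806, with 11, 14 and 11 reads, 1.28 times the input floor at the last and the floor at the others. These 3 also formed 1 of the 4 groups of 3. Another of the 4 groups lay in the chromosome 14 window, starting at 43760608, 43763889 and 43767180 with 21, 14 and 15 reads, and the others were on chromosomes 5 (from 98974134) and 12 (from 18167085).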

How the data were processed

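HMGA1 ChIP, H3 ChIP and input DNA were sequenced from DAMI cells, 1 library each. The authors deposited 2 MACS2 peak lists on hg19, per the submitters' processing notes, both of the HMGA1 library, with H3 or input as control. Peak names carry another prefix for the ChIP, taken to be HMGA1 from the names of the lists. Each deposited row gives an interval, a fold ratio, −log10 p and −log10 q values, a summit and a score (10 times the −log10 q). The sources used here name no MACS2 version, aligner or read filter.

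Reads were recovered as the whole HMGA1 pileup that gives back the deposited p-value, with fold as pileup plus 1 over control plus 1. All input-list peaks fitted within 0.001 of the −log10 p, as did all but 3 H3-list peaks after a scaling of 0.787 fitted on 400 peaks. The procedure was tested on simulated data. Overlap was at least 1 bp, and coordinates are 1-based. Shares have exact Clopper-Pearson intervals, medians order-statistic intervals, and ratios exact Poisson intervals. Weighting gave kept peaks the read distribution of lost ones. Alternatives were other overlap and width limits, stricter q-values, folds or reads, leaving out raised windows or chromosome 9, and adding chromosomes X and Y. Ratios at equal reads, summit positions, groups of peaks and weighting by chromosome were added after the data were seen.

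The regions and lists were chosen with earlier results of these data known. Named peaks are the 10 with the highest −log10 q, the 5 with most reads, the extremes of distance, the first 3 in the densest 1 Mb windows and the highest-q peak of the 3 highest-share and 3 lowest-share chromosomes. No genome or gene annotation of that build was used, so genes and sequences are not given. Tools were Python 3.11.15, with scipy 1.17.1, pandas 2.3.3 and numpy 2.4.6 for values and matplotlib 3.10.9 for plots.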

Additional observations from a re-analysis of the deposited data

How the results depend on the processing

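No paired analysis was possible because there is 1 library per antibody, so no replicate could be left out. Differences below are lost minus kept wide peaks. When an H3-list peak had to cover 50% of the peak, 13365 wide peaks were lost (23.3%), with differences of -8 reads, -1.32 in fold, -21.7 percentage points in input control above its floor and -1303 bp in distance to an H3-list peak, which reversed because the lost then include overlapped peaks at 0 bp. With an H3-list peak within 500 bp taken as shared, 5.43% were lost, with differences of -11 reads and -2.12 in fold. With widths from 400 bp these values were 8971 peaks, 9.23%, -11 reads, -2.07 in fold and -25.6 points, and with widths from 600 bp 1233 peaks, 3.72%, -13 reads and -2.4 in fold. With −log10 q of at least 5 in both lists 5949 peaks (11.5%) were lost, with -11 reads, -1.85 in fold and -20.6 points. With a fold of at least 4 it was 1142 peaks (2.34%), -11 reads, -1.74 in fold, -36.8 points, 821.5 bp and -4.6 points in the share with a neighbour within 10 kb. With at least 25 reads, 28 peaks (0.0931%) were lost, with -5 reads and -3.38 in fold, and 2 differences reversed: input control to 13.7 points and distance to -314.5 bp, with an interval of the distance that includes 0.

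Without raised windows the lost share was 6.72%, with -11 reads, -2.22 in fold and -27.0 points, and without chromosome 9 the fold differed by -2.22. With kept peaks weighted to equal reads the differences were 0 in fold, -4.59 points in input control and 299.5 bp in distance, and with chromosome weighted as well -4.09 points and 264 bp. The difference in neighbours was -3.1 points within 5 kb and -0.54 within 20 kb. On chromosome 14 the lost share was 40.3% with 50% covered, 17.6% from 400 bp, 8.6% from 600 bp, 19.4% with the stricter q-value, 5.93% with the fold limit and 0% with at least 25 reads, which allows up to 1.23%. On chromosome 21 it was, in the same order, 12.3, 3.67, 1.08, 6.38, 0.946 and 0.168%. The share of lost wide peaks with enough reads to pass over floor H3 was 99.3, 95, 98.2, 100, 100 and 100% in that order. For each of these changes the cause was not tested. In all, 35 of the values kept direction and size, 63 moved and 3 reversed. Summits under 8 reads over input or 11 over H3 were not detectable at this depth.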
